A study of Mus musculus with 2 samples.

Results

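Of the 1446 nuclei annotated as amacrine by the authors, 604 lay in clusters 23 and 24, the amacrine clusters other than 12, 13 and 27. They were chosen by the authors' cluster number and cell type name alone, both of which the authors drew from expression. Cluster 23 held 248 nuclei and cluster 24 held 356, of 14123 nuclei in both libraries.

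Amacrine cells are interneurons of the inner retina that contact bipolar cell terminals, retinal ganglion cells (RGCs) and one another in the inner plexiform layer. Most release either GABA or glycine. Gad1 and Gad2 make GABA, while Slc6a9 is the glycine transporter by which glycinergic amacrine cells hold their transmitter, and Slc32a1 loads both transmitters into vesicles. The AII amacrine cell, a narrow-field glycinergic type, passes the rod bipolar signal to cone bipolar cells through gap junctions and glycinergic synapses.

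Single-nucleus transcripts were counted in whole retinas of mice at postnatal day 21 on a C57 BL/6J background. The Cre− library came from animals labelled WT and bred from Cre− parents, and the sources used here do not say whether they carried floxed alleles. The Tet tcKO library came from animals with loxp/loxp alleles of Tet1, Tet2 and Tet3, the enzymes that oxidise 5-methylcytosine, together with the Chx10::Cre-GFP transgene active in retinal progenitor cells. That transgene is mosaic, and Cre-positive animals were crossed with each other so that 2 copies were present. Each genotype gave 1 library of nuclei from 2 dissociation pools, each of at least 4 retinas, and the pool of a nucleus is not recorded. A single library stood for each genotype, so genotypes were not tested against each other. Values are given with exact 95% intervals that cover counting error only, and differences between animals or preparations cannot be told apart from differences between genotypes.

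The libraries held 7357 Cre− and 6766 Tet tcKO nuclei with medians of 1107 and 1836.5 UMIs (unique transcript molecules) per nucleus. In cluster 23 the medians were 1012.5 UMIs in Cre− and 1835 in Tet tcKO nuclei, and in cluster 24 they were 1644 and 1369. The summed depth was 31300 UMIs for the 26 Cre− nuclei of cluster 23 and 59350 for the 35 of cluster 24, against 520406 and 469737 in Tet tcKO. In counts per 1000000 UMIs (CPM), 1 UMI was therefore worth 31.9 CPM in Cre− cluster 23, 16.8 in Cre− cluster 24, 1.92 in Tet tcKO cluster 23 and 2.13 in Tet tcKO cluster 24. The libraries shared 1 cell barcode, and 0 shared barcodes lay in these clusters. No nucleus was called a doublet by scrublet in either library, so the caller was not relied upon. Of the nuclei with the highest 5% of doublet scores, 17 lay in Tet tcKO cluster 23 (7.66% of its nuclei), 8 in Tet tcKO cluster 24 (2.49%) and 0 among the Cre− nuclei of either cluster.

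The authors named clusters from marker genes, so the 10 amacrine markers read here describe the name and do not test it. At 1 UMI or more over the summed nuclei, Cre− nuclei of both clusters held 8 of the 10, and Tet tcKO nuclei of both held all 10. That count rises with depth, and Gad2 in Cre− cluster 23 and Slc6a9 in Cre− cluster 24 entered it on 1 UMI. Tfap2b, an AP-2 transcription factor of amacrine and horizontal cells, stood at 799 CPM in Cre− nuclei and 671 CPM in Tet tcKO nuclei of cluster 23, and at 270 and 596 CPM in cluster 24. Its relative Tfap2a stood at 95.8 and 204 CPM in cluster 23 and at 202 and 343 CPM in cluster 24. Pax6, a homeobox factor retained in mature amacrine cells, lay between 708 and 1273 CPM in all 4 sets of nuclei. After every nucleus was thinned to 500 UMIs, Tfap2a or Tfap2b was seen in 38.5% of the Cre− nuclei and 34.2% of the Tet tcKO nuclei of cluster 23, and in 7 of 35 and 34.0% of those of cluster 24. In RGCs, with median depths of 1601 and 2381 UMIs, the thinned shares were 2.29% and 3.12%, but they were 15.0% and 13.8% in bipolar nuclei and 12.1% and 14.3% in rods and cones. The interval of Cre− cluster 24, from 8.44 to 36.9%, held these values, so on these genes its 35 nuclei were not apart from them at this depth. Among the 10 genes with the highest ratio over all other nuclei of the library, each cluster had 1 amacrine marker in each library. Horizontal cell markers numbered 1 there in Tet tcKO cluster 23, since Tfap2b belongs to both lists. The amacrine name was kept, and the clusters are called by number below.

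The share of captured nuclei in both clusters was higher in the Tet tcKO library. Cluster 23 held 26 of 7357 Cre− nuclei, 0.353% (0.231 to 0.517), and 222 of 6766 Tet tcKO nuclei, 3.28% (2.87 to 3.73). Cluster 24 held 35 Cre− nuclei, 0.476% (0.332 to 0.661), and 321 Tet tcKO nuclei, 4.74% (4.25 to 5.28). These Clopper-Pearson intervals cover the counting of nuclei alone, and with 1 library per genotype they do not compare the genotypes. Shares of a library also move together. The whole amacrine class was 5.48% of Cre− and 15.4% of Tet tcKO nuclei, and rods and cones were 74.5% and 47.8%. As a share of amacrine nuclei, cluster 23 was 6.45% (4.26 to 9.31) of the Cre− and 21.3% (18.8 to 23.9) of the Tet tcKO library, and cluster 24 was 8.68% (6.12 to 11.9) and 30.8% (28.0 to 33.7). Together they held 15.1% of the 403 Cre− and 52.1% of the 1043 Tet tcKO amacrine nuclei. Cluster 12 shared this direction, with 14 Cre− and 357 Tet tcKO nuclei, while cluster 27 held 256 Cre− nuclei and only 21 Tet tcKO nuclei. The authors clustered both libraries together on expression, and genes differed between the libraries inside these clusters, so these are shares of the authors' partition. Whether a cell type became more frequent, or nuclei of a like type were placed in another cluster, cannot be told apart from them.

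**Figure D1:**
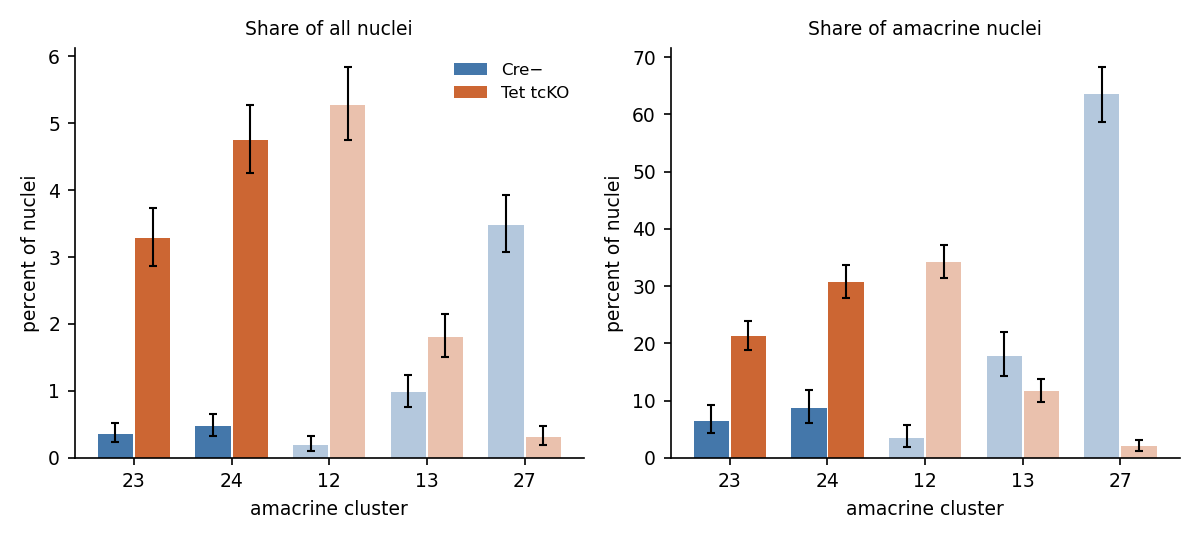
Share of nuclei in each amacrine cluster in the Cre− and Tet tcKO libraries, in percent of all nuclei (left) and of amacrine nuclei (right), with exact 95% intervals for counting error. Clusters 23 and 24, in full colour, were at 0.353% and 0.476% of Cre− nuclei and at 3.28% and 4.74% of Tet tcKO nuclei.

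The targeted genes were measured in the same nuclei. Tet1 was at 0 of 31300 UMIs in Cre− cluster 23, which at a limit of 3 counts allows a level of up to 95.8 CPM, and at 86.5 CPM in Tet tcKO cluster 23. In cluster 24 Tet1 was at 67.4 CPM in Cre− nuclei and 91.5 CPM in Tet tcKO nuclei. Tet2 lay between 111 and 129 CPM and Tet3 between 134 and 177 CPM in all 4 sets of nuclei. Over both clusters together the log2 ratio of Tet tcKO over Cre− was 1.01 for Tet1 with an interval from −0.40 to 2.92, −0.01 for Tet2 and 0.13 for Tet3. In cluster 13, by contrast, Tet1 was lower in the library labelled Tet tcKO, at a log2 ratio of −1.26 (−2.47 to −0.06). A 3′ count does not read whether the floxed exons are present, so these values do not check the recombination.

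Cluster 23 in the Cre− library carried the glycine transporter. Slc6a9 (GRCm39 chr4:117691703-117732395) was at 639 CPM (390 to 987) in Cre− cluster 23 and was seen in 13 of 26 nuclei. It was at 16.8 CPM (0.427 to 93.9) in Cre− cluster 24, from 1 UMI. The same gene was at 109 CPM in Cre− rods and cones and at 132 CPM in Cre− bipolar nuclei, where it serves here as the background. Slc6a5, the neuronal glycine transporter that loads glycine for release, was at 128 CPM (34.8 to 327) in Cre− cluster 23 and at 0 UMIs in Cre− cluster 24, which at 3 counts allows up to 50.5 CPM. The enzymes that make GABA were sparse in the same nuclei. Gad1 was at 63.9 CPM (7.74 to 231) in 2 nuclei and Gad2 at 31.9 CPM in 1 nucleus.

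In Cre− cluster 24 the enzymes that make GABA stood higher than in Cre− cluster 23, but on few UMIs. Gad1 (chr2:70383416-70432372) was at 185 CPM (92.5 to 332) in 10 of 35 nuclei and Gad2 at 168 CPM (80.8 to 310) in 9 nuclei. The log2 ratio of cluster 23 over 24 was −1.54 (−4.75 to 0.66) for Gad1 and −2.40 (−7.84 to 0.41) for Gad2. Both intervals held 0, so the clusters were not resolved on these genes. After thinning, Gad1 or Gad2 was seen in 22.9% of Cre− cluster 24 (8 of 35, 10.4 to 40.1) and 7.69% of Cre− cluster 23 (0.946 to 25.1). The share was 14.3%, 16.7% and 8.20% in Cre− clusters 12, 13 and 27. It was 4.30% in Cre− bipolar nuclei, 3.38% in Cre− rods and cones and 0.705% in Cre− RGCs. Slc6a9 was seen after thinning in 38.5% of Cre− cluster 23 (10 of 26, 20.2 to 59.4) and in 0 of 35 nuclei of Cre− cluster 24. At a limit of 3 nuclei this allows a share with a UMI of up to 8.57%, and the exact interval reaches 10.0%. The thinned share for Slc6a9 was 5.71% in Cre− rods and cones, which had a median of 1046 UMIs, and 5.49% in Cre− bipolar nuclei with a median of 1968.

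In the Tet tcKO library the levels of Slc6a9 in the 2 clusters lay closer together, and the clusters were again not resolved on Gad1 and Gad2. Slc6a9 was at 123 CPM (94.7 to 157) in Tet tcKO cluster 23, near the 98 CPM of Tet tcKO rods and cones, and at 40.4 CPM (24.4 to 63.2) in Tet tcKO cluster 24. It was seen after thinning in 7.66% and 2.49% of the nuclei of these clusters, against 4.89% in rods and cones and 2.91% in bipolar nuclei of that library. Gad1 was at 108 CPM (81.3 to 140) and 136 CPM (105 to 174) in clusters 23 and 24, and Gad2 at 106 CPM (79.6 to 138) and 130 CPM (99.3 to 167). For both genes the intervals of the clusters overlapped. Thinned, Gad1 or Gad2 was seen in 7.21% of Tet tcKO cluster 23 and 11.5% of Tet tcKO cluster 24 (8.25 to 15.5), with 5.48% in Tet tcKO rods and cones and 2.56% in RGCs. Summed over the list of 3 glycine genes, the level in cluster 23 was 831 CPM in Cre− nuclei and 188 CPM in Tet tcKO nuclei.

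**Figure D2:**
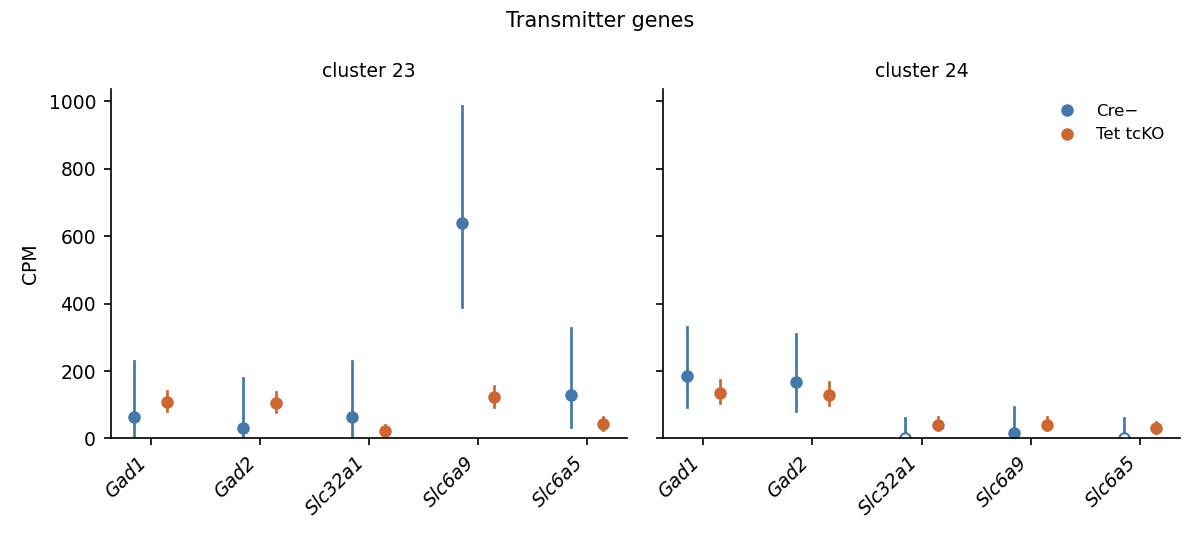
Levels of the GABA-making enzymes (Gad1, Gad2), the shared vesicular transporter Slc32a1 and glycine transporters (Slc6a9, Slc6a5) in CPM, in clusters 23 and 24, as points with exact 95% Poisson intervals (open points are at 0). Slc6a9 stood at 639 CPM in Cre− nuclei and 123 CPM in Tet tcKO nuclei of cluster 23.

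Genes of acetylcholine and peptide transmission were scarce in both clusters. Chat or Slc5a7, which make acetylcholine and take up its precursor choline in starburst cells, were seen after thinning in 0 of 26 Cre− nuclei and 0 of 222 Tet tcKO nuclei of cluster 23, and in 0 of 35 and 1 of 321 nuclei (0.312%) of cluster 24. In cluster 13, the thinned shares were 22.2% in Cre− and 27.9% in Tet tcKO. The starburst list summed to 31.9 and 144 CPM in Cre− and Tet tcKO cluster 23 and to 33.7 and 97.9 CPM in cluster 24, against 2779 and 3673 CPM in cluster 13. Slc17a7, the vesicular glutamate transporter of photoreceptors and bipolar cells, was at 31.9 CPM (1 UMI) and 121 CPM in Cre− and Tet tcKO cluster 23 and at 101 CPM (6 UMIs) and 102 CPM in cluster 24, below the 382 and 337 CPM of rods and cones. Of 16 neuropeptides, Cre− cluster 23 held UMIs of 1, Cartpt, at 95.8 CPM. Tac2, a tachykinin gene, was at 101 CPM in Cre− cluster 24 and 23.4 CPM in Tet tcKO cluster 24.

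Genes of the AII list set Cre− cluster 23 apart from the other Cre− amacrine nuclei. Dab1 (chr4:103476556-104602041), the intracellular adaptor of reelin signalling that labels AII cells, was at 3962 CPM in Cre− cluster 23, from 124 UMIs in 23 of 26 nuclei, and 1 nucleus gave 24 of these UMIs. It was at 725 CPM (524 to 976) in Cre− cluster 24 and between 284 and 544 CPM in Cre− clusters 12, 13 and 27. Prox1 (chr1:189850232-189904637), a homeobox factor of AII and horizontal cells, was at 511 CPM (292 to 830) in 14 nuclei of Cre− cluster 23 and at 84.2 CPM in Cre− cluster 24. Nfia (chr4:97660971-98007111), a nuclear factor I transcription factor, was at 575 CPM (341 to 909) and 33.7 CPM in these clusters. All 13 Cre− cluster 23 nuclei with a Slc6a9 UMI also held Dab1, and 12 of the 14 with Prox1 did. Since 23 of all 26 nuclei held Dab1, both joint counts are near what its single count alone would give. Gjd2, which encodes the gap junction protein connexin 36, was seen as 1 UMI in Cre− cluster 23 and was too sparse to compare. The 7 AII genes summed to 5304 CPM (4527 to 6175) in Cre− cluster 23 and 944 CPM in Cre− cluster 24, and Dab1 gave 124 of the 166 UMIs in the former. Without Dab1, an alternative chosen after the values were seen, the other 6 genes were at 1342 CPM (967 to 1814) and 219 CPM (117 to 375), mostly from Prox1 and Nfia. Calb2 had 3 UMIs in each of these sets, and Nfib, Nfix and Gjd2 had at most 3.

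The 10 genes with the highest ratio in Cre− cluster 23 over the other Cre− amacrine nuclei were listed after the values were seen, and since the clusters were made from these genes they are a description. Tll1, which encodes a tolloid-like metalloprotease, led at a log2 ratio of 3.21, followed by Lgr5, an R-spondin receptor of the Wnt pathway, at 3.02. The ratio of Tll1 rested on 11 UMIs in 5 nuclei. Lgr5 (chr10:115286216-115423685) was at 863 CPM (568 to 1255) in 14 nuclei, and 1 of these nuclei held 8 of its 27 UMIs. Dab1 followed at 3.00 (2.67 to 3.31), Prox1 at 2.83, Slc6a9 at 2.56 (1.75 to 3.32) and Nfia at 2.44. The others were Tmem132a, Galnt18, Nwd2 and Gabrg3, the last a GABA-A receptor subunit at 1629 CPM. Of the 10, 3 belonged to the AII list and 1 each to the amacrine list (Slc6a9) and the horizontal list (Prox1). Of the list of another glycinergic type, VG3, Slc17a8 was at 0 UMIs in the Cre− nuclei of both clusters and Sdk2 had 4 UMIs in each, so that the third gene, Slc6a9, alone set the sum apart. The growth factor gene Nrg1 was at 6677 CPM in Cre− cluster 23 and 2881 CPM in Cre− cluster 24.

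In Tet tcKO nuclei of cluster 23, genes of the AII list, Slc6a9 and Lgr5 stood lower. Genes picked above for a high ratio in 26 Cre− nuclei, often on few UMIs (27 for Lgr5, 18 for Nfia, 16 for Prox1), can be lower in another library through that choice alone, so their ratios here are descriptions. Dab1 was at 836 CPM (759 to 918) in 138 of 222 nuclei, Prox1 at 158 CPM (125 to 196) in 62 nuclei, Nfia at 135 CPM (105 to 170) in 48 nuclei and Lgr5 at 250 CPM (209 to 297) in 72 nuclei. The log2 ratios of Tet tcKO over Cre− in cluster 23 were −2.24 (−2.54 to −1.94) for Dab1, −2.38 (−3.12 to −1.57) for Slc6a9, −1.70 (−2.48 to −0.83) for Prox1, −2.10 (−2.86 to −1.26) for Nfia and −1.79 (−2.39 to −1.13) for Lgr5. When a gene counted at most once in a nucleus, the ratio of Dab1 was −1.29. Nrg1 was at 2204 CPM, a log2 ratio of −1.60 (−1.81 to −1.38). The amacrine factors Tfap2b and Pax6 did not share this size of change, at −0.25 (−0.84 to 0.40) and −0.19 (−0.70 to 0.35). Tfap2a was higher in Tet tcKO cluster 23, from 106 UMIs, but its 95.8 CPM in Cre− nuclei came from 3 UMIs. In other amacrine nuclei Dab1 went either way between the libraries, from 284 CPM in Cre− to 775 CPM in Tet tcKO cluster 13 and from 526 to 253 CPM in cluster 27. The Tet tcKO level in cluster 23 was near the 775 CPM of cluster 13 and the 618 CPM of cluster 12 in that library, and above the 385 CPM of rods and cones. Lower in Tet tcKO cluster 13 as well were Slc6a9 at −2.53 (−4.37 to −0.95), Prox1 at −1.44 (−2.89 to −0.03) and Nrg1 at −0.98 (−1.30 to −0.65). Nfia at −0.79 (−1.88 to 0.33) and Lgr5 at 1.49 (−0.04 to 3.48) had intervals there that held 0.

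**Figure D3:**
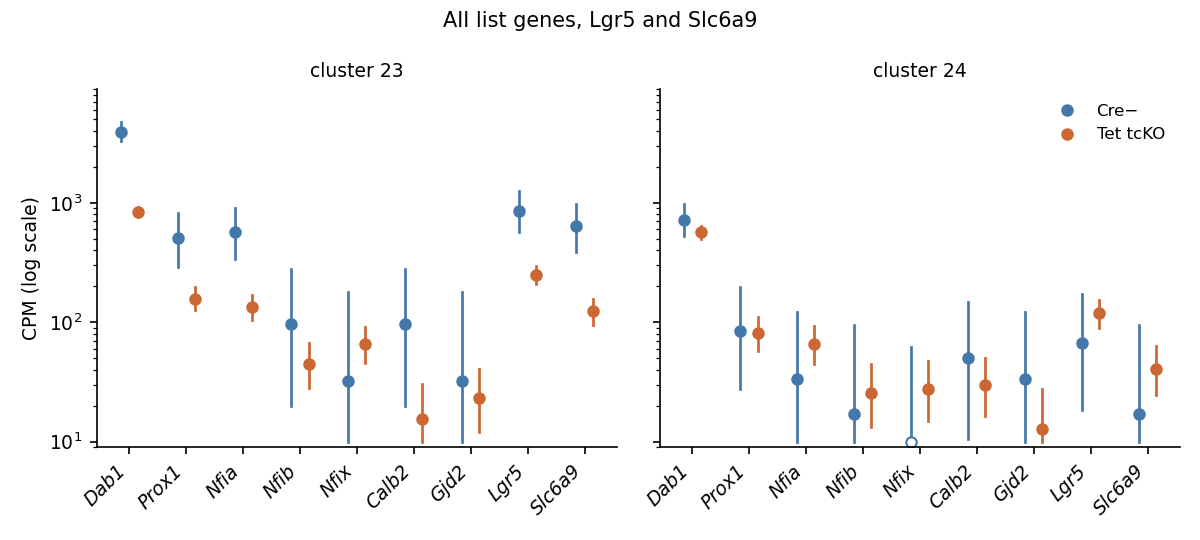
Levels of the 7 AII list genes, Lgr5 and Slc6a9 in CPM on a log axis, in clusters 23 and 24, as points with exact 95% Poisson intervals (open points at the lower edge lie below 10 CPM). In cluster 23, Dab1 stood at 3962 CPM in Cre− nuclei and 836 CPM in Tet tcKO nuclei.

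A sum over nuclei can hide whether all nuclei were low or whether few were high, so the AII list was counted in each nucleus per 10000 of its UMIs, a score to which Dab1 gave most of the UMIs. The median was 50.6 in Cre− cluster 23 and 9.02 in Tet tcKO cluster 23, against 4.73 and 6.34 in cluster 24. Without Dab1 the medians in cluster 23 were 12.9 and 2.43, and the summed level was 1342 CPM in Cre− against 440 CPM (385 to 501) in Tet tcKO. The highest nucleus reached 164 in Cre− and 107 in Tet tcKO cluster 23. The first quartile of Cre− cluster 23, 15.9, was taken as a limit, so 19 of its 26 nuclei stand at or above it by that choice. Of the Tet tcKO nuclei of cluster 23, 64 of 222 did (28.8%, 22.96 to 35.27). Of the 222, 32 lay within 25% of that limit. In Tet tcKO cluster 24 it was 50 of 321 (15.6%), and in the comparison clusters 37 of 122 (30.3%) in Tet tcKO cluster 13 and 55 of 256 (21.5%) in Cre− cluster 27. Thinned to equal depth, 57.7% of Cre− nuclei and 17.1% of Tet tcKO nuclei of cluster 23 held 2 or more UMIs of the list, as did 11.4% and 5.30% of cluster 24, 19.9% and 11.3% of bipolar nuclei, and 8.89% and 7.30% of rods and cones. The Cre− share of cluster 23 was above each of these. The Tet tcKO share, 17.1% (12.4 to 22.7), was above those of cluster 24 and of rods and cones of its own library. Its interval overlapped those of bipolar nuclei, 9.79 to 12.9% in Tet tcKO and 16.9 to 23.1% in Cre−. It also overlapped that of Tet tcKO cluster 13, at 10.7% (5.80 to 17.5).

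**Figure D4:**
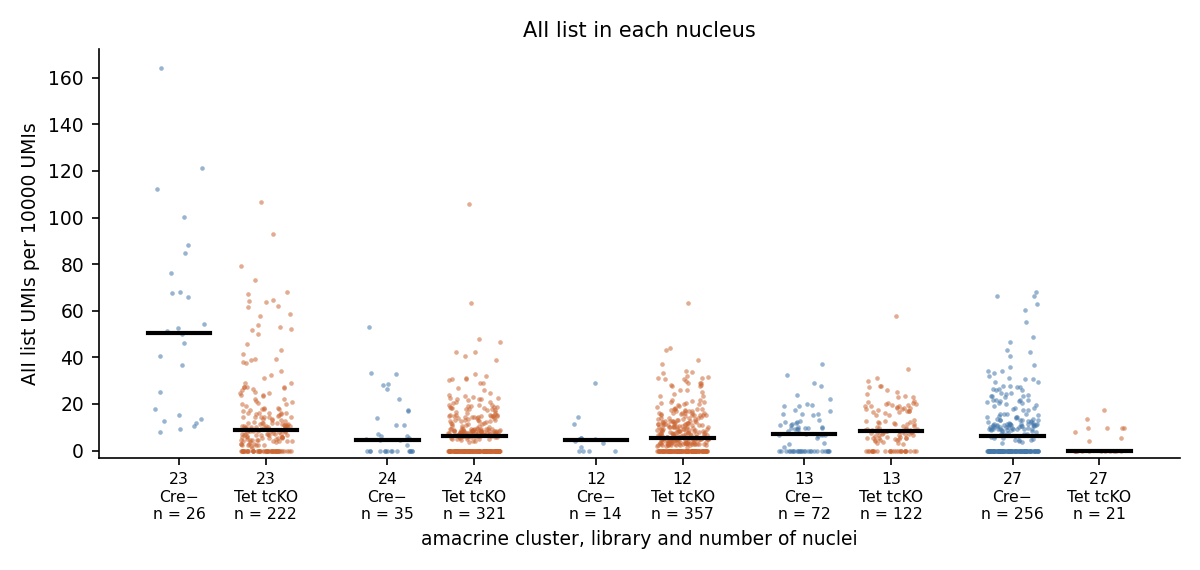
UMIs of the 7 AII list genes per 10000 UMIs in each nucleus of the 5 amacrine clusters, with 1 point per nucleus and a black bar at the median. Cre− nuclei of cluster 23 had a median of 50.6, and Tet tcKO nuclei of that cluster had a median of 9.02 with single nuclei up to 107.

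Nuclei high for the list were present in Tet tcKO cluster 23, and their other genes were read apart from the choice. In the 64 nuclei at or above 15.9 per 10000, Slc6a9, which is not on the list, was at 275 CPM (194 to 379), and in the 158 below it was at 70.0 CPM (46.1 to 102). Lgr5 was at 431 and 187 CPM in these groups, whereas among the Cre− nuclei of cluster 23 it was at 610 CPM (334 to 1024) in the 19 high and 1556 CPM (828 to 2661) in the 7 low nuclei. Gad1 and Gad2 together were at 163 CPM in the high and 231 CPM in the low nuclei. Of the 49 Tet tcKO cluster 23 nuclei with a Slc6a9 UMI, 42 also held Dab1 and 17 also held Gad1 or Gad2. Among all 222 nuclei, 138 held Dab1 and 79 held Gad1 or Gad2. The overlap with Gad1 or Gad2 is thus near what the single counts alone would give. The limit is a range on a continuous score and marks no cell type.

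Cone genes were higher in the Tet tcKO nuclei of both clusters. Cngb3 (chr4:19280850-19510623), a subunit of the cone cyclic nucleotide-gated channel, was at 95.8 CPM in Cre− nuclei and 1378 CPM in Tet tcKO nuclei of cluster 23, and at 168 and 622 CPM in cluster 24. Arr3, cone arrestin, was at 128 and 603 CPM in cluster 23 and at 118 and 349 CPM in cluster 24. The 10 genes of the cone list summed to 447 CPM (245 to 750) in Cre− cluster 23, with 5 of the genes at 0, and to 2999.6 CPM (2853 to 3152) in Tet tcKO cluster 23. In cluster 24 the sums were 775 and 1814 CPM. The cone list was also higher in Tet tcKO nuclei of the other amacrine clusters, at 428 and 1632 CPM in cluster 12, 706 and 1744 CPM in cluster 13 and 929 and 1557 CPM in cluster 27. Outside the amacrine class, Cngb3 was at 236 and 2041 CPM in rods and cones and at 339 and 3066 CPM in bipolar nuclei. In Tet tcKO cluster 23, 127 nuclei (57.2%) held both Cngb3 and Tfap2a or Tfap2b, as did 111 nuclei (34.6%) of Tet tcKO cluster 24. Singly, Tfap2a or Tfap2b was seen in 158 of 222 and 208 of 321 nuclei of these clusters, and Cngb3 in 175 of each. The joint counts are near what the single counts alone would give.

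Rod and bipolar lists differed less. The rod list was at 1374 CPM in Cre− nuclei and 1608 CPM in Tet tcKO nuclei of cluster 23 and at 1415 and 1124 CPM in cluster 24. The bipolar list was at 1534 and 2116 CPM in cluster 23 and at 1314 and 1243 CPM in cluster 24. Rod and cone genes together took a median of 18.0 per 10000 UMIs of a nucleus in Cre− and 38.4 in Tet tcKO cluster 23. Microglia genes were at 0 UMIs in Cre− nuclei of both clusters and at 26.9 and 19.2 CPM in Tet tcKO, astrocyte genes at 0 in Cre− and at 30.7 and 12.8 CPM in Tet tcKO. The Müller glia list was at 671 and 396 CPM in cluster 23 and at 404 and 330 CPM in cluster 24. The RGC list was at 415 and 250 CPM in cluster 23 and at 185 and 200.1 CPM in cluster 24. The vascular list was at 224 and 140 CPM in cluster 23 and at 101 and 123 CPM in cluster 24. The part of these genes in the genotype differences was not tested.

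**Figure D5:**
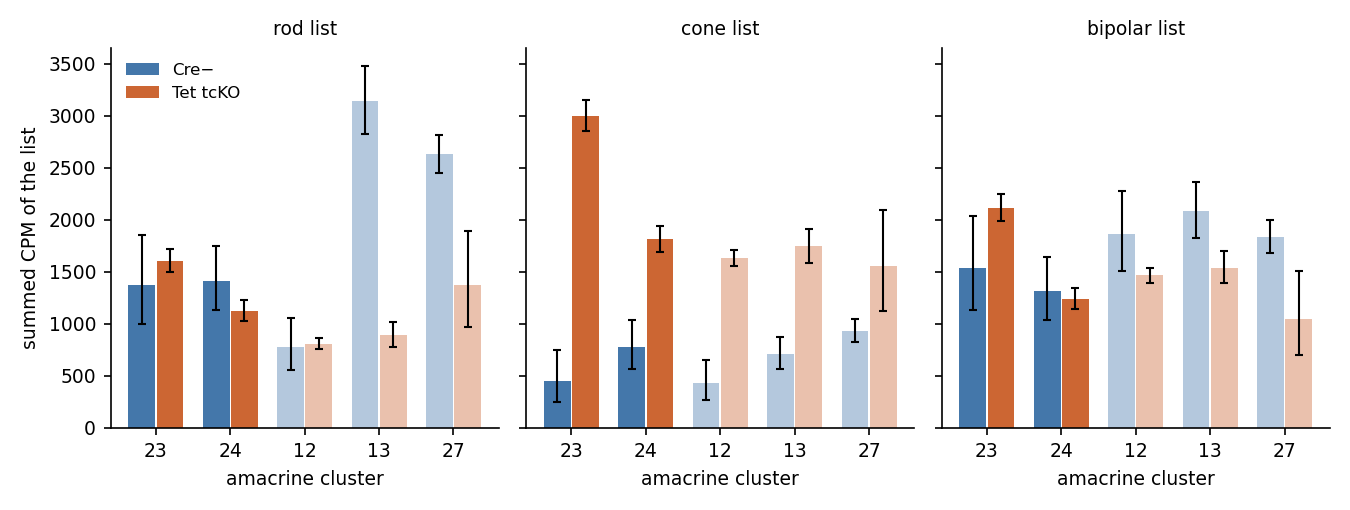
Summed CPM of the rod, cone and bipolar marker lists in each amacrine cluster and library, with exact 95% Poisson intervals. The cone list was higher in Tet tcKO than in Cre− nuclei in all 5 clusters, at 447 CPM in Cre− cluster 23 and 2999.6 CPM in Tet tcKO cluster 23.

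Leading genes in Tet tcKO nuclei differed from those of the Cre− library. Over the other Tet tcKO amacrine nuclei, cluster 23 was led by Trpm1, the transduction channel of ON bipolar cells, at a log2 ratio of 1.87, then Slc6a9 at 1.70 (1.19 to 2.21), Plk5 at 1.61, Prom1 at 1.59, Prox1 at 1.55 and Lgr5 at 1.54. Slc1a7, a glutamate transporter of bipolar cells and photoreceptors, Rp1 of the photoreceptor axoneme, Cacna2d4, a calcium channel subunit of photoreceptor synapses, and Otx2os1, a long noncoding RNA antisense to Otx2, followed at 1.53 to 1.49. Slc6a9, Prox1 and Lgr5 were thus among the leading genes in both libraries. When a gene counted at most once in a nucleus, 2 of these 10 stayed among the leading genes of cluster 23 and 6 of the 10 of cluster 24. Trpm1 itself was at 192 CPM in Cre− nuclei and 217 CPM in Tet tcKO nuclei of cluster 23. Otx2os1 was at 479 and 721 CPM there, and the sources used here do not say whether counting used strand.

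Cluster 24 had weaker leading genes. In Tet tcKO nuclei they were Bms1, a ribosome assembly factor, at a log2 ratio of 1.29 over the other amacrine nuclei, then Tmem35b, Sema6d at 1.17, Zcchc8 at 1.16, Kcnt1 at 1.15 and Glcci1 at 1.10, of whose 57 UMIs 1 nucleus gave 23. Pde4a, Arhgef25, Rpl13 and the synaptotagmin Syt7 followed at 1.04 to 0.90. No gene of the amacrine, AII or other class lists was among the 10 in either library. In the Cre− library cluster 24 was led by Grb14 at 2.39, Ankrd44 at 2.07, Rnf220 at 2.00 and Cdh8, a cadherin, at 1.99. Grb14 rested on 10 UMIs in 8 nuclei, and 1 nucleus gave 24 of the 48 Rnf220 UMIs. Over all other nuclei of the library rather than other amacrine nuclei, Tet tcKO cluster 24 was led by Col6a1 at 2.14, Tfap2a at 2.12, Cpne5 at 2.08 and Col11a1 at 2.06, and Gad2 was among the leading genes of Cre− cluster 24 at 3.13 (2.05 to 4.03).

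The homeobox gene Meis2 (chr2:115693062-115896341) was at 1196 CPM in Cre− cluster 24 and 288 CPM in Cre− cluster 23, a log2 ratio of cluster 23 over 24 of −2.06 (−3.24 to −1.05). In Tet tcKO nuclei the levels were 828 and 617 CPM and the ratio was −0.42 (−0.64 to −0.21). Robo1, a receptor for Slit guidance cues, showed a like narrowing, at 1483 CPM in Cre− cluster 24 and 256 CPM in Cre− cluster 23, and at 1162 and 997 CPM in Tet tcKO. Dab1 ran the other way, with a log2 ratio of cluster 23 over 24 of 2.45 (1.94 to 2.99) in Cre− nuclei and 0.56 (0.33 to 0.78) in Tet tcKO nuclei. These are differences between clusters that the authors separated on expression and carry no test.

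Across genes the clusters were most alike in the Tet tcKO library. Pearson's r of log2(CPM + 10) over 835 genes with a mean of at least 200 CPM was 0.953 between clusters 23 and 24 in Tet tcKO. It was 0.917 between clusters 23 and 12, 0.905 between cluster 23 and bipolar nuclei and 0.802 between cluster 24 and bipolar nuclei. In Cre− nuclei, over 877 genes, r was 0.610 between clusters 23 and 24, 0.719 between clusters 23 and 27 and 0.867 between clusters 24 and 27. These correlations are across genes, which are not independent, and populations of a library share its depth and its free RNA. The Cre− values rest on 26 and 35 nuclei and carry more counting error.

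In Tet tcKO nuclei, 179 of 4561 genes with at least 50 CPM in 1 cluster and 20 UMIs over both differed 2-fold between clusters 23 and 24 (3.92%). Of these, 114 (2.5%) were higher in cluster 23, with an interval above 0 for 113 of them, and 65 (1.43%) were lower, all 65 with an interval below 0. Of the bipolar list, 5 of the 8 genes that passed the filter were 2-fold higher in cluster 23, with a median log2 ratio of 1.32 against 0.01 for all genes. They were Trpm1 at 2.28 (1.60 to 3.03), Lhx4 at 2.02 (0.72 to 3.59), Isl1 at 1.85 (0.62 to 3.29), Otx2 at 1.41 (0.66 to 2.22) and the ON bipolar glutamate receptor Grm6 at 1.24 (0.43 to 2.11). Of the AII list, 2 of 4 were 2-fold higher, Nfix at 1.24 and Nfia at 1.03 (0.40 to 1.69), and Prox1 was just inside 2-fold at 0.96 (0.39 to 1.56). Cngb3 was higher at 1.15 (0.95 to 1.35) and was the 1 cone gene of 7 past 2-fold. Gad1 was at −0.34 (−0.88 to 0.20) and Gad2 at −0.30 (−0.85 to 0.25).

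The highest ratios of cluster 23 over 24 were those of Trpm1, Api5 at 1.96, Gpr179, an ON bipolar receptor, at 1.67, Otx2os1 at 1.65, Slc6a9 at 1.60 (0.85 to 2.43), Gm38353 at 1.57, Prom1 at 1.49 and Rp1 at 1.47. Of the 56 Api5 UMIs in cluster 23, 1 nucleus gave 47, and when a gene counted at most once in a nucleus the ratio of Api5 was −0.29, that of Trpm1 was 1.34 and that of Otx2os1 was 0.71. The lowest were Bms1 at −1.17, Glcci1 at −1.07, Syt6 at −1.04, Zkscan2 at −1.03, Taf1b, Dpysl4 at −0.98, Tnc, an extracellular matrix protein, at −0.96 and the potassium channel Kcnt1 at −0.96. By that count Glcci1 was at −0.34. Of the 23 transcription factors that passed the filter, 5 were 2-fold higher in cluster 23 (Isl1, Nfix, Neurod1 at 1.22, Nfia and Tshz1 at 1.01) and Maf was lower at −1.63. Tfap2a was lower in cluster 23 at −0.75 (−1.12 to −0.39).

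Within a single cluster the Cre− nuclei were too few for a count of genes between genotypes, since fewer than 50 were present. After this was seen the clusters were pooled, with 61 Cre− and 543 Tet tcKO nuclei, of which cluster 23 gave 26 and 222. In UMIs, on which the ratios rest, cluster 23 gave 31300 of 90650 in Cre− and 520406 of 990143 in Tet tcKO, so the pooled values weigh the clusters unequally. Of 4859 genes, 870 differed 2-fold between the libraries (17.9%), 465 higher (9.57%) and 405 lower (8.34%) in Tet tcKO. The interval of the ratio was above 0 for 144 of the 465 and below 0 for 187 of the 405, so many of these differences were not detectable at this depth. The same comparison in cluster 13 gave 749 of 3893 genes (19.2%). The median log2 ratio over all genes was −0.03.

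Among lists, the cone genes and the AII genes went opposite ways. Of the 7 cone genes that passed the filter, 6 were 2-fold higher in Tet tcKO, with a median of 1.99, beside 9.57% of all genes. Among them were Cngb3 at 2.83 (2.05 to 3.74), Arr3 at 1.99 (1.14 to 3.00) and the short-wave opsin Opn1sw at 2.18 (0.61 to 4.48). Gnat2 and Gngt2, of the cone transducin complex, had 0 Cre− UMIs, and against a floor of 3 UMIs over the pooled nuclei their log2 ratios were at least 1.84 and 1.12. Like Opn1sw, with 1 and 2 Cre− UMIs in clusters 23 and 24, they passed 50 CPM only through Tet tcKO nuclei. Such genes can hardly come out lower, so the count of 6 and its median are descriptions. In cluster 13, where 10.3% of genes were 2-fold higher and 8.94% lower, 3 of 5 cone genes were higher. Of the 4 AII genes that passed, 3 were 2-fold lower, beside 8.34% of all genes. They were Dab1 at −1.38 (−1.62 to −1.13), Nfia at −1.11 (−1.82 to −0.34) and Calb2, the calcium-binding protein calretinin, at −1.57 (−2.92 to 0.02). Prox1 was at −0.93 (−1.61 to −0.19). The same list in cluster 13 had 3 of 5 genes lower and 1 higher, the latter Dab1 at 1.45 (0.91 to 2.03). Other class lists held lower genes too. Of the rod list 3 of 8 genes were 2-fold lower over the pooled clusters, and 8 of 8 in cluster 13. Of the Müller glia list it was 2 of 4 and 1 of 3, and of the bipolar list 0 of 5 and 2 of 5. Slc6a9 was lower at −1.47 (−2.17 to −0.70) over the pooled clusters. Gad1 was at −0.24 and Gad2 at −0.05, and Abat, which breaks down GABA, was at 1.09 (−0.18 to 2.74). In cluster 13 Slc6a9 was lower as well, at −2.53 (−4.37 to −0.95). It had 5 Tet tcKO and 13 Cre− UMIs there, too few for the filter.

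Among the genes that differed most between the pooled libraries, Nxph1, a secreted neurexin ligand, was higher at a log2 ratio of 3.93 (1.43 to 9.24) and Plk5 at 3.62 (1.11 to 8.93), each on 1 Cre− UMI. Then came the fibrillar collagen gene Col11a1 at 3.08 (2.09 to 4.29), Acsl6 at 2.75, the neuronal membrane glycoprotein gene Gpm6a at 2.63, Rasgrf2 at 2.54 and Gm32647 at 2.39, the last 4 on 2 or 3 Cre− UMIs. Cngb3 was the fourth. The lowest were BC046251 at −2.54, Endov at −2.47 (−3.04 to −1.87), the potassium channel Kcnq3 at −2.03, the immediate early gene Nr4a1 at −1.93, Cpne6 at −1.92, Gpatch11 at −1.86, Tmem132a at −1.86 and Zfp846 at −1.82. Endov, an endonuclease for inosine-containing RNA, was lower across the library, from 504 to 121 CPM in rods and cones, from 396 to 83 CPM in RGCs and from 447 to 73.6 CPM in cluster 13. Kcnq3 was not lower in cluster 13, where its log2 ratio was 0.61 (−0.44 to 1.80).

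In cluster 23 alone the lowest ratios were Tmem132a at −3.34 (−4.51 to −2.12), Endov at −2.81, Traip at −2.59, Stac2 at −2.50, Slc6a9 at −2.38, Adam11 at −2.35, Kcnq3 at −2.26 and Dab1 at −2.24. Of the 8 highest, 7 rested on 1 Cre− UMI, and the exception was Cngb3 at 3.85 (2.29 to 6.13). In cluster 24 alone Col11a1 was higher at 3.45 (2.22 to 5.08), while the other 7 of the 8 highest rested on 1 Cre− UMI. The lowest in cluster 24 were Endov at −2.22, Pitpnm3 at −1.85, Ankrd44 at −1.83, Frmd4b at −1.81, Kcnq3 at −1.80, mt-Atp8 at −1.65, Myo3a at −1.60 and Sdk1 at −1.56 (−1.91 to −1.19). For Frmd4b, 1 nucleus gave 14 of the 31 Cre− UMIs, and with a gene counted at most once in a nucleus its ratio was −0.99 and that of Sdk1 was −0.85. Also lower in cluster 13, with intervals below 0, were Traip at −1.67, Stac2 at −1.09, Adam11 at −1.67, Frmd4b at −1.28, Myo3a at −1.53 and mt-Atp8 at −1.87. Not lower there were Ankrd44 at 2.49 (0.49 to 5.62), Dab1 at 1.45 and Kcnq3 at 0.61. Mitochondrial genes gave 5.47% of the UMIs of all Cre− nuclei and 1.76% of those of all Tet tcKO nuclei. In cluster 24 the transmitter genes and Dab1 stayed closer, at −0.44 (−1.38 to 0.63) for Gad1, −0.38 (−1.35 to 0.75) for Gad2 and −0.35 (−0.82 to 0.15) for Dab1. Tfap2b was higher in Tet tcKO cluster 24 at 1.14 (0.42 to 1.97) and Pax6 at 0.85 (0.39 to 1.33).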

How the data were processed

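Per the labels, reads of 2 PIPseq libraries were processed with pipseeker against GRCm39. The authors removed ambient RNA with CellBender at a cell probability of 0.99, imported nuclei into Monocle3 and kept those between 500 and 10000 transcripts with less than 20% mitochondrial reads. Counts in the deposited matrices are whole UMIs. The deposited mitochondrial percent and size factor ratio of a nucleus were not used for levels, nor was the authors' mean signal of a gene per genotype. Other per-sample columns numbered 0.

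Members and gene lists were chosen with earlier results of these data known. UMIs were summed per cluster and library and divided by all UMIs (CPM). Intervals are exact at 95%: Poisson, conditional for ratios, and Clopper-Pearson for shares. A count of 0 was set to 3 in a ratio. Genes needed 50 CPM in 1 group and 20 UMIs over both, and differences were counted at 2-fold. For shares, nuclei were thinned to 500 UMIs. Named were list genes, the 10 leading genes of a cluster (at least 100 CPM and 10% of nuclei) and the 8 highest and 8 lowest ratios (at least 100 CPM and 10 nuclei). Steps were tested on simulated data. Software was Python 3.11.15, numpy 2.4.6, scipy 1.17.1, pandas 2.3.3, scanpy 1.11.5, matplotlib 3.10.9, R 4.3.3 and edgeR 4.0.16, the last for TMM factors only. Positions are those of GENCODE on GRCm39. Values of certain list genes are left out of the text.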

Additional observations from a re-analysis of the deposited data

How the results depend on the processing

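With 1 library per genotype, no replicate could be left out, and no paired analysis was possible because each group has 1 library. Of 81 alternative values of main results, 51 stayed within the error of the reported value or within 1.5 times its count, and 30 did not. Of 345 values of single genes, 344 kept their sign. The exception was Api5, at −0.29 for cluster 23 over 24 when a gene counted at most once in a nucleus. The pooled comparison of genotypes and its alternatives, the limit on the AII list per nucleus, the Cre− leading genes, the AII list without Dab1 and the correlations were chosen after seeing the data.

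As shares of amacrine nuclei the clusters stood at 6.45% and 21.3% (23) and 8.68% and 30.8% (24) in Cre− and Tet tcKO. Among nuclei with at least 1000 UMIs, Tet tcKO cluster 23 was at 2.82% and Cre− cluster 24 at 0.686% of nuclei. Without thinning, Gad1 or Gad2 was seen in 35.6% of Tet tcKO cluster 23, 48.6% of Cre− cluster 24 and 32.4% of Tet tcKO cluster 24, and Slc6a9 or Slc6a5 in 27.03% and 9.35% of Tet tcKO clusters 23 and 24. When a gene counted at most once in a nucleus, Gad1 and Gad2 together were at 275 and 332 CPM in Tet tcKO clusters 23 and 24 and Slc6a9 and Slc6a5 at 209 CPM in Tet tcKO cluster 23. Under that count 2 and 6 of the 10 Tet tcKO leading genes of clusters 23 and 24 remained, and 272 genes (208 higher) differed 2-fold between the clusters. The log2 ratio of Dab1 between genotypes in cluster 23 was then −1.29 and that of Sdk1 in cluster 24 was −0.85. Against all nuclei in place of amacrine nuclei, 0 of the 10 Tet tcKO leading genes remained in either cluster. With a limit of 10 CPM or none, 1608 genes differed between genotypes (1129 higher), and 485 between clusters (258 higher and 227 lower). The 26 and 35 Cre− nuclei, with 31.9 and 16.8 CPM for 1 UMI, set the depth limit.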

Other observations

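Receptor genes gave a further description of the clusters. The AMPA receptor genes Gria2 and Gria4 were high in all 4 sets of nuclei, at 1693 CPM and 1885 CPM in Cre− and 1366 CPM and 2031 CPM in Tet tcKO cluster 23, and at 2056 CPM and 1601 CPM in Cre− and 1871 CPM and 2197 CPM in Tet tcKO cluster 24. Of the 14 ionotropic glutamate receptor genes that passed the filter, 1 differed 2-fold between the pooled genotypes, Grik4 at a log2 ratio of 1.95 (0.37 to 4.25), and 0 differed between the clusters in Tet tcKO, beside 17.9% and 3.92% of all genes. Of 13 GABA and glycine receptor genes 3 (Gabrb2, Glra1 and Glrb) were 2-fold higher in Tet tcKO, each with an interval that held 0, beside 9.57% of all genes, with a median log2 ratio of 0.50 over the 13. Glra2, a glycine receptor subunit, was lower in Tet tcKO cluster 23 than in Tet tcKO cluster 24, at 26.9 against 72.4 CPM and a log2 ratio of −1.43 (−2.44 to −0.49). Gabrg3 stood at 1629 CPM in Cre− cluster 23 and at 548 CPM in Tet tcKO cluster 23, a log2 ratio of −1.57 (−2.01 to −1.11).

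Recognition molecules, by which neurites find partners in the inner plexiform layer, had 2 of 37 genes 2-fold higher and 2 lower in Tet tcKO, beside 9.57% and 8.34% of all genes. Pcdh15, a protocadherin, was at 447 and 2435 CPM in Cre− and Tet tcKO cluster 23 and at 556 and 1620 CPM in cluster 24, a pooled log2 ratio of 1.98 (1.57 to 2.43). It was also higher in Tet tcKO rods and cones, at 4018 CPM against 1789 CPM. Cntnap5a was higher at 1.70 (1.03 to 2.46), and in cluster 13 at 4.67 (3.68 to 5.89). Sdk1, a sidekick adhesion molecule, was at 1438 and 492 CPM in cluster 23 and at 1516 and 515 CPM in cluster 24, with a pooled log2 ratio of −1.57 (−1.84 to −1.28) and −1.20 (−1.96 to −0.44) in cluster 13. Cdh8 was lower at −1.33 (−1.99 to −0.63). Dscaml1, an immunoglobulin adhesion molecule, and Cntn4, a contactin, were higher in Cre− cluster 23 at 1853 and 1438 CPM than in Tet tcKO cluster 23 at 749 and 500 CPM. The log2 ratio was −1.31 (−1.71 to −0.88) for Dscaml1 and −1.52 (−1.99 to −1.03) for Cntn4.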
